A study of Mus musculus with 4 samples.

Results

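Fibroblasts from mouse embryos (MEFs) that carried the label NFAT5 knockout were compared between hypertonic and isotonic medium. The comparison took the log2 signal of the hypertonic array minus that of the isotonic array, with 1 array a side. A gene was described by its brightest probe set, by the mean of all 4 arrays, among those annotated with that gene alone, and it counted as measured when it passed the dim limit on at least 1 of the 2 knockout-labelled arrays. The dim limit of an array was the median signal of these probe sets. By this rule 10277 of 19938 genes (51.5%) were measured.

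The series held 4 Affymetrix Mouse Gene 1.0 ST arrays, for wild-type and knockout-labelled MEFs in isotonic or hypertonic medium. All cells were unsynchronised and had been in their medium for 20 hours, and hypertonic medium was brought to 450 mosmol/kg with NaCl. The sources used here do not state the isotonic osmolality, the deleted part of the gene or the number of MEF lines. Each array carried a pool of 4 samples of its group, so the spread among those samples was not seen, and no difference below has an error, a test or a replicate check. Counts were therefore made at a fixed limit of 2-fold, which is 1 on the log2 scale, and differences are descriptions of these pools.

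NFAT5 or TonEBP belongs to the Rel family of transcription factors and accumulates in the nucleus when the medium becomes hypertonic. It binds tonicity elements beside genes for transporters and enzymes that fill the cell with organic osmolytes such as betaine, myo-inositol, taurine and sorbitol, and it also switches on some heat shock and water channel genes. Cells without it grow poorly in high salt, and salt itself is known to act on mitogen-activated kinases, the cell cycle and DNA repair through routes that do not need NFAT5.

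The labels were checked on the arrays as far as they could be. Nfat5 read 8.03 in isotonic and 8.24 in hypertonic medium under the knockout label, against 7.74 and 8.19 in wild type, so its probe set was not lower under the knockout label, and a probe set outside a deletion checks nothing. The arrays of each label nevertheless resembled each other in genes chosen after their values were seen. Xist, the RNA of the inactive X chromosome, read 8.99 and 9.31 in wild-type and 3.75 and 3.16 in knockout-labelled cells. Ifi202b, an interferon-inducible gene, read 3.19 and 2.81 in wild-type but 8.63 and 7.32 in knockout-labelled cells. With Xist bright under the wild-type label alone, the sex of the cells may differ between the labels. Differences between the genotypes below cannot be told apart from such a difference. The part of such differences between the genotypes in the response was not tested. Which knockout-labelled array was hypertonic rests on the labels alone, as does every direction below.

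The response ran mostly downward. At least 2-fold lower in hypertonic medium were 317 of the 10277 measured genes (3.08%), against 39 genes at least 2-fold higher (0.379%). At 1.5-fold the counts were 1237 lower and 440 higher, at 3-fold 44 and 4, and at 4-fold 8 and 2. The middle 50% of differences lay between -0.35 and 0.15, the lowest 1% lay below -1.31 and the highest 1% above 0.84. In the wild-type cells the same count gave 42 genes lower (0.414%) and 102 higher (1.01%) of 10134 measured, so the balance between directions differed between the genotypes, and this difference was not tested. The median of all measured genes in the knockout-labelled response was -0.09, and 4097 genes (39.9%) were above 0. Quantile normalization of the 4 arrays moved that median to 0.01 and left 215 genes lower and 63 higher, while centring the differences left 233 and 66. Among the counted genes the higher ones made up 11.0% as deposited, 22.7% after quantile normalization and 22.1% after centring. Cyclic loess normalization gave 269 lower and 39 higher genes, a share of 12.7%, with 259 and 31 of them shared with the deposited values. Lower genes outnumbered higher ones under each of the 3, by a margin that depended on the scaling.

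**Figure D1:**
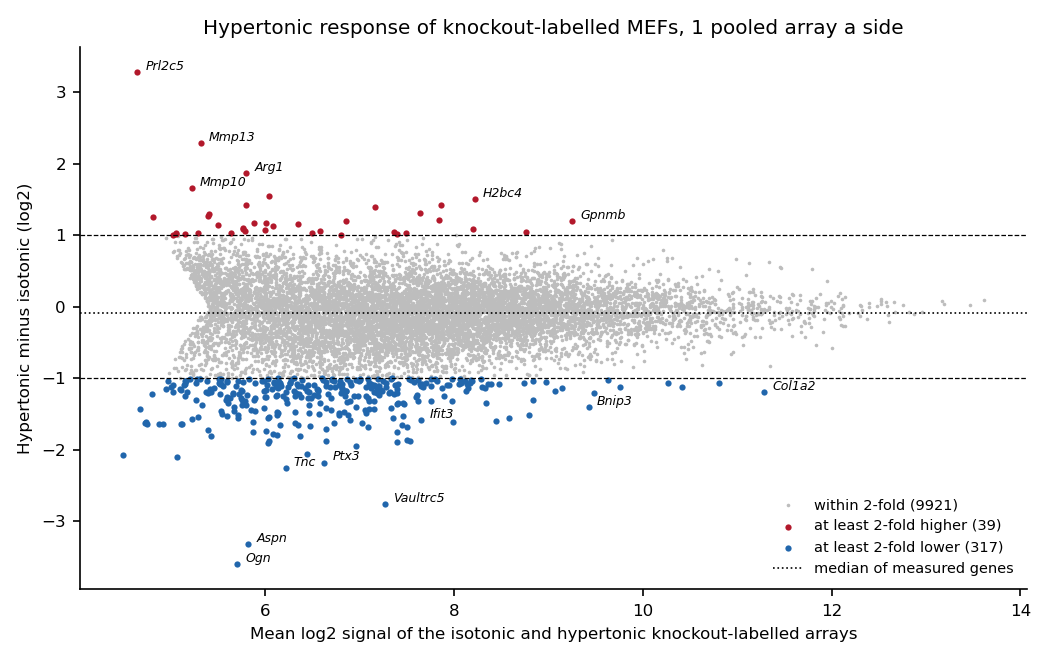
Each point is a measured gene of the knockout-labelled response, with the mean log2 signal of its isotonic and hypertonic arrays on the x axis and the log2 difference on the y axis. Red points are the 39 genes at least 2-fold higher, blue points the 317 at least 2-fold lower, dashed lines mark 2-fold and the dotted line the median of -0.09; most higher genes lie at low signal, and lower genes reach Col1a2 at the bright end.

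Higher and lower genes differed in how well they were measured. The median signal of the 317 lower genes was 7.25 in isotonic and 5.92 in hypertonic knockout-labelled cells, and 7.10 and 7.24 in the wild-type cells. For 217 of them both signals were above the dim limits, which were 5.38 on the isotonic and 5.41 on the hypertonic array, and for 100 the smaller signal was below. The 39 higher genes had medians of 5.30 and 6.59, and 20 of them began below the dim limit, where a signal mixes background with expression and a fold is poorly determined. The hypertonic knockout-labelled array was the lowest of the 4 for 288 of the 317 lower genes, and at least 2-fold below all 3 others for 161. Its isotonic partner was within 2-fold of both wild-type arrays for 252. Among the higher genes it was the highest of the 4 for 36 and at least 2-fold above all others for 19. The counting itself set the hypertonic array apart from its isotonic partner, so these ranks are a description.

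The genes nearest to the limits show how fine they are. Dsp, a desmosome protein gene, went from 4.53 to 5.53 and was counted as higher, whereas Glcci1, at 7.52 and 8.52, fell just short. On the other side Asah2, a ceramidase gene, read 6.81 and 5.81 and was counted as lower, and Abi2, at 7.66 and 6.66, was not. Pax1, with a hypertonic signal of 5.41, was the measured gene nearest to the dim limit, and Tssk4, at 5.38 and 5.36, was the gene left out nearest to it.

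Small leucine-rich proteoglycans, which bind collagen fibrils and growth factors in the matrix, held the 2 lowest differences of all. Of 14 members with a probe set 4 were measured, and 3 of those were at least 2-fold lower (75%, against 3.08% of all measured genes). Ogn, osteoglycin, read 7.51 in isotonic and 3.90 in hypertonic knockout-labelled cells, against 6.92 and 8.31 in wild type, a 12.2-fold lower signal in the knockout-labelled response. Aspn, asporin, read 7.48 and 4.16 against 8.91 and 11.00 in wild type, a 9.99-fold lower signal. Omd, osteomodulin, read 5.70 and 4.05 against 4.46 and 5.89. For all 3 the hypertonic signal was the lower of the pair in knockout-labelled cells and the higher of the pair in wild type, and their hypertonic signals were below the dim limit, so the folds are poorly determined. Bgn, biglycan, stood apart at 9.91 and 9.76. Aspn, Omd and Ogn lie side by side in the RefSeq gene order, as a run of 3 lower genes.

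**Figure D2:**
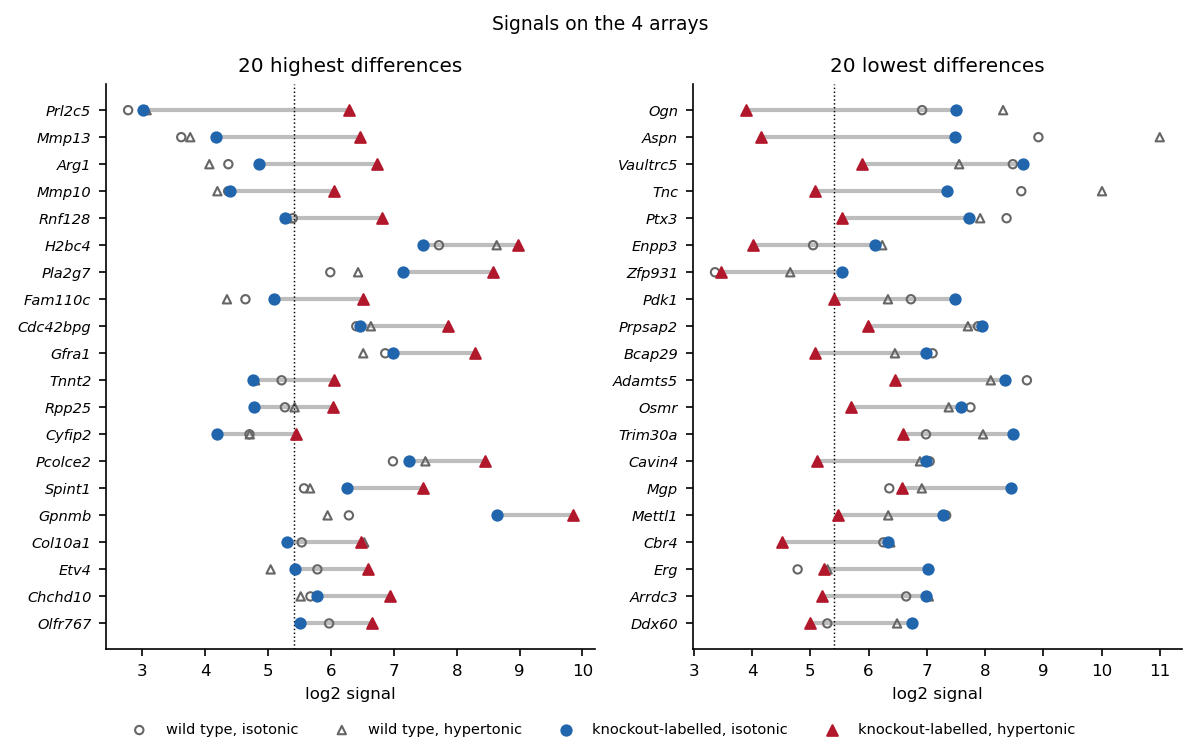
Signals on the 4 arrays for the 20 genes with the highest (left) and the 20 with the lowest (right) difference in knockout-labelled cells, leaving out provisional symbols, with log2 signal on the x axis. Filled circles are isotonic and filled triangles hypertonic knockout-labelled arrays, open symbols the wild-type arrays, the dotted line is the hypertonic dim limit of 5.41; in the right panel the hypertonic triangles of Ogn and Aspn lie at 3.90 and 4.16, left of all other arrays.

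Further secreted matrix proteins were lower with them. Tnc, tenascin C, read 7.35 in isotonic and 5.09 in hypertonic knockout-labelled cells, while the wild-type arrays stood at 8.62 and 10.00. Postn, periostin, went from 6.37 to 4.96. Of the 15 measured matricellular genes these 2 were counted as lower (13.3%, against 3.08% of all measured genes), and both ended below the dim limit. Ccn3, of the CCN family of regulatory matrix proteins, was counted as higher (7.65 and 8.75). The list's median was -0.32, and -0.05 where both arrays had to be above the dim limit. It turned to 0.01 when dim genes were kept, so no direction is given for the list as a whole. Ccn2, connective tissue growth factor, differed by 0.82 and Vcan, the large proteoglycan versican, by -0.93. Mgp, matrix Gla protein and an inhibitor of calcification, read 8.44 and 6.57.

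A single fibrillar collagen chain was counted as lower. Col1a2, a chain of collagen I, read 11.88 in isotonic and 10.68 in hypertonic knockout-labelled cells, against 12.06 and 12.10 in wild type, and it was the brightest of the named lower genes. Its partner Col1a1 read 11.76 and 10.93, short of 2-fold. Of the 11 measured fibrillar and fibril-associated collagens 1 was counted as lower (9.09%, against 3.08% of all measured genes). None was counted as higher, 7 were below 0, and the median was -0.21. Col12a1 (-0.64) and Col3a1 (-0.53) came next. Among 21 measured genes of basement membrane and other collagens, laminins and nidogens, Lama4, a laminin alpha chain, was the 1 gene counted (4.76%). It read 5.54 and 3.91, against 7.05 and 7.26 in wild type, and ended below the dim limit. Others of that list went the opposite way short of 2-fold, Lamb1 by 0.78 and Col8a2 by 0.71, and the median was -0.30 with 14 below 0.

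Enzymes that modify and join collagen and elastin gave the same picture. Lox, lysyl oxidase, which crosslinks both fibres, read 9.24 in isotonic and 7.65 in hypertonic knockout-labelled cells, with 9.71 and 9.21 in wild type. Fbn2, a microfibril protein, went from 6.70 to 5.28 and Mfap5, which associates with microfibrils, from 6.33 to 5.11, both ending below the dim limit. Of 16 measured elastic fibre and lysyl oxidase genes 3 were counted as lower (18.8%, against 3.08% of all measured genes). None was counted as higher and 14 were below 0, with a median of -0.45. In the endoplasmic reticulum, the lysyl hydroxylase gene Plod2 read 8.45 and 7.31, the prolyl hydroxylase gene P4ha1 10.32 and 9.20, and Crtap, of the prolyl 3-hydroxylation complex, 8.72 and 7.54. These were the 3 lower genes among 15 measured in that list (20%), whose median was -0.43 with 12 below 0. Pcolce2, a secreted enhancer of procollagen processing, was the 1 member of that list counted as higher, at 7.24 and 8.45 (6.67%, against 0.379% of all measured genes).

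Matrix proteases and their inhibitors divided. The collagenase gene Mmp13 read 4.17 in isotonic and 6.46 in hypertonic knockout-labelled cells, a 4.90-fold higher signal, against 3.62 and 3.76 in wild type. The stromelysin gene Mmp10 read 4.39 and 6.05, with 4.36 and 4.19 in wild type. Both were bright on the hypertonic knockout-labelled array alone, and both began below the dim limit. Mmp3, another stromelysin gene, stayed short of 2-fold (5.63 and 6.38). Timp3, an inhibitor that also blocks ADAMTS enzymes, was lower, at 9.55 and 8.04 against 9.19 and 9.96 in wild type, with both knockout-labelled signals well above the dim limit. Among 10 measured ADAMTS genes the aggrecanase gene Adamts5 (8.34 and 6.45), Adamtsl3 (7.57 and 6.10) and Adamts1 (9.28 and 8.22) were counted as lower. These made up 30%, against 3.08% of all measured genes, though Adamts1 came to -0.97 at the weakest of the alternative scalings and dim limits. Wherever an alternative is named below, its weakest value is given. The median of that list was -0.32 as measured but 0.09 when dim genes were kept, so its direction rests on the brighter members.

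The promoters of Mmp13 and Mmp10 are shown because both hold the AP-1 motif close to the start site. AP-1 is the dimer of FOS and JUN proteins that drives collagenase genes in stimulated fibroblasts. Sequences are the 250 bases before the start site, from RefSeq on build GRCm38.p6, 5′ to 3′ on the gene's strand, with AP-1 matches in capitals.
Mmp13, chr9:7272264-7272513, plus strand: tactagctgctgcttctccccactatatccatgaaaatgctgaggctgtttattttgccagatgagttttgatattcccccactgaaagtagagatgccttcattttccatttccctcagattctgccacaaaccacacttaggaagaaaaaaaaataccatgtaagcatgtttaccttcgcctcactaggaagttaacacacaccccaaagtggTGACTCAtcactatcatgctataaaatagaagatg
Mmp10, chr9:7502092-7502341, plus strand: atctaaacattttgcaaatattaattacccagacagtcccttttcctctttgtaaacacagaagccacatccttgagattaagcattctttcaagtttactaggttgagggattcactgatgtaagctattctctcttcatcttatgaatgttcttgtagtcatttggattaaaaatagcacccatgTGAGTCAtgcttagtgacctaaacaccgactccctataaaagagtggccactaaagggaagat
The match begins 35 bases before the start site in Mmp13 and 63 bases before it in Mmp10. The motif TGANTCA, searched on both strands of windows from 250 bases before to 50 after the start site, was found in 7 of 32 higher genes with a promoter in the table (21.9%) and in 18 of 255 lower genes (7.06%). It was found in 5.66% of all measured genes and in 8.97% of all RefSeq promoters of that length. The other higher genes with the motif included Gpnmb, Spint1 and Fam110c. It was also found in 8 of the 25 measured interferon genes with a promoter in the table (32%). These included 3 of the 8 such genes counted as lower (37.5%), so genes with the motif were found in both directions. These are shares of letters in a window and say nothing of binding.

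Other secreted proteins and receptors, drawn from several lists, differed in both directions. Ptx3, a pentraxin that organises hyaluronan, read 7.72 in isotonic and 5.54 in hypertonic knockout-labelled cells, with 8.37 and 7.91 in wild type. Of 7 measured hyaluronan genes it was the 1 gene counted (14.3%, against 3.08% of all measured genes), and the median of -0.59 rested on few members. Serpinf1, a secreted serpin with anti-angiogenic action, went from 6.81 to 5.57, and the plasminogen activator genes Plat (-0.82) and Plau (-0.71) lay short of 2-fold. Vegfd, a lymphatic growth factor, read 8.27 and 6.52, against 8.46 and 9.13 in wild type. The chemokine gene Cxcl12 read 8.48 and 7.39, while the membrane-bound chemokine gene Cxcl16 was higher, at 5.47 and 6.54. They were the 2 counted of 13 measured chemokine, cytokine and inflammation genes, whose median was 0.01. Each made up 7.69% of the list, against 3.08% lower and 0.379% higher of all measured genes. Alternatives took Cxcl12 to -0.97 and Cxcl16 to 0.98. Osmr, the oncostatin M receptor, went from 7.58 to 5.70.

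Interferon-induced genes formed the largest group of lower genes among the lists used. These genes are switched on by type I and type II interferons through STAT and IRF factors, and their products detect or restrict viruses. Of 33 measured antiviral members 9 were at least 2-fold lower in hypertonic knockout-labelled cells (27.3%, against 3.08% of all measured genes). None was higher, and 31 were below 0. The median was -0.73, and between -0.59 and -0.65 under quantile normalization, cyclic loess and centring. It was -0.56 where both arrays had to be above the dim limit. All 33 were above that limit on the isotonic knockout-labelled array, and 29 on the hypertonic one. In the 33 measured members the wild-type median was 0.74, and 30 of the 33 were above 0 in wild type and below 0 under the knockout label.

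Values of single members show where the groups met. Ifit3, of the family that binds foreign RNA, read 7.68 and 9.20 in wild-type and 8.44 and 6.86 in knockout-labelled cells, isotonic value given before hypertonic. Trim30a, a regulator of innate signalling, read 6.98 and 7.96 in wild type and 8.47 and 6.59 under the knockout label. Oasl2, of the oligoadenylate synthetase family, read 7.80 and 8.87, then 8.90 and 7.81, and its difference of -1.09 came to -0.99 under an alternative. For each of the 3 the isotonic knockout-labelled signal lay above the isotonic wild-type signal, and for Ifit3 and Trim30a the hypertonic one lay below both wild-type arrays. Over the list 31 of 33 isotonic knockout-labelled signals were above the isotonic wild-type ones, so the difference between media in knockout-labelled cells began from a higher level. The myxovirus resistance gene Mx1 (5.77 and 4.57), the DNA sensor gene Zbp1 (6.11 and 5.00) and the RNA sensor regulator gene Dhx58 (6.03 and 4.83) ended below the dim limit. So did Ifi203 (6.68 and 5.06).

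Interferon-induced GTPases attack the vacuoles of intracellular pathogens. Of 4 measured members Gbp7 (8.13 and 6.57), Iigp1 (5.39 and 3.96) and Gbp3 (8.69 and 7.67) were counted as lower, and Irgm1 read 9.20 and 9.06. The lower members made up 75% of this short list, against 3.08% of all measured genes. Iigp1 passed the dim limit on the isotonic array alone, and Gbp3 came to -0.92 under an alternative. Among 16 measured interferon signalling factors the transcription factor gene Irf7 was the 1 gene counted (6.25%). Irf7 read 8.61 and 7.54, against 7.27 and 8.81 in wild type, and it came to -0.96 under an alternative, short of 2-fold. The receptor chain gene Ifnar2 differed by -0.91, and the feedback inhibitor gene Socs1 by 0.76. The median of that list was -0.13, close to that of all genes. Of 12 measured genes of class I antigen presentation, Tap1, a peptide transporter subunit, was the 1 counted as lower (7.26 and 5.90). That is 8.33% of the list, in which 11 were below 0 and the median was -0.34.

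**Figure D3:**
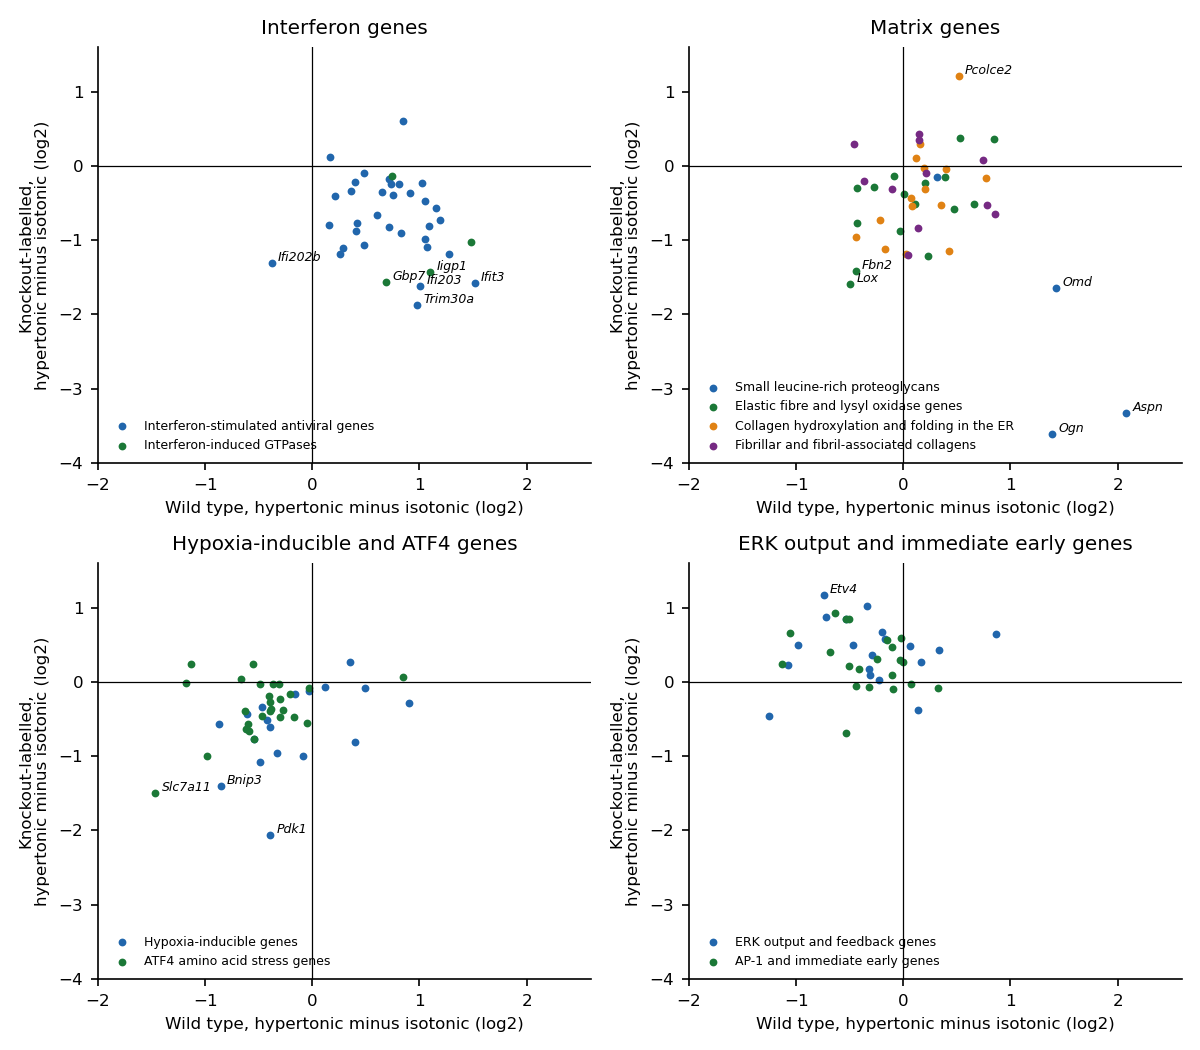
Measured members of the named lists, with the log2 difference between hypertonic and isotonic medium in wild-type cells on the x axis and in knockout-labelled cells on the y axis, 1 pooled array a group. Interferon genes fill the lower right, with 30 of 33 antiviral members there, ERK output genes lie mostly in the upper left, and ATF4 genes lie at lower left, with 23 of 27 below 0 on both axes.

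The promoters of Ifit3 and Gbp7 are shown because they hold matches to the core of the interferon-stimulated response element, the site of the STAT and IRF complex. The letters searched were GAAANNGAA on both strands, matches are in capitals, and no match to the other motifs searched overlapped them. Both sequences come from RefSeq, build GRCm38.p6, and are the 250 bases before the start site.
Ifit3, chr19:34583279-34583528, plus strand: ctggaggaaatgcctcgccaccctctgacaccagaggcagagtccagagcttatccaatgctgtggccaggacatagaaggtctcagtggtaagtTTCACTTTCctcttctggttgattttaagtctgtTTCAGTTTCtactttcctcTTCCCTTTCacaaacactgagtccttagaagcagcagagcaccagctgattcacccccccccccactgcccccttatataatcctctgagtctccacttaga
Gbp7, chr3:142530086-142530335, plus strand: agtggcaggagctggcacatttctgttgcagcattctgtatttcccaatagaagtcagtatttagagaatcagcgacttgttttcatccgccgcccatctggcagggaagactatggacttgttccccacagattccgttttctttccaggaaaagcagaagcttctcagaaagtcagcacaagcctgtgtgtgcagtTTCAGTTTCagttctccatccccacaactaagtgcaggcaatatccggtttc
Matches begin 155, 121 and 102 bases before the start site in Ifit3 and 52 bases before it in Gbp7. The motif was held by 15 of 25 measured interferon genes with a RefSeq promoter (60%), and by 6 of the 8 such genes counted as lower. Over all measured genes with a promoter the share was 8.04%, and over all RefSeq promoters of that length 9.76%. Among all lower genes with a promoter it was 26 of 255 (10.2%). The share was high in the interferon lists and close to the background among the lower genes at large. Windows also held matches to more than 1 motif, since the Ifit3 window has an AP-1 match and the Mmp13 window a GAAANNGAA match.

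Genes induced by hypoxia lay mostly below 0. They answer to the factor HIF, which is stabilised when prolyl hydroxylases lack oxygen. Of 18 measured members 3 were at least 2-fold lower in hypertonic knockout-labelled cells (16.7%, against 3.08% of all measured genes). None was higher and 17 were below 0, with a median of -0.54, while 39.9% of all measured genes were above 0. Pdk1, the kinase that keeps pyruvate out of mitochondria, read 7.48 in isotonic and 5.41 in hypertonic cells, against 6.73 and 6.33 in wild type. Bnip3, which marks mitochondria for autophagy, read 10.13 and 8.72 against 9.12 and 8.27. A further probe set of Bnip3, which the rule did not use, went from 9.14 to 7.96. Ankrd37 read 6.88 and 5.80 against 5.51 and 5.03, and the carbonic anhydrase gene Car12, just short of 2-fold, 6.90 and 5.91 against 4.91 and 4.83. Isotonic knockout-labelled signals were above isotonic wild-type ones for 12 of the 18. The wild-type median was -0.36, and Ankrd37 came to -0.95 under an alternative.

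Glycolytic enzymes, many of them HIF targets, had a median of -0.20 over 18 measured genes, with 14 below 0. The lactate exporter gene Slc16a3 (7.93 and 6.73) and the liver-type phosphofructokinase gene Pfkl (10.15 and 9.12) were counted as lower (11.1%, against 3.08% of all measured genes). Pfkl came to -0.93 under an alternative. Pfkfb3 (-0.70) and Pfkm (-0.68) followed.

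The Bnip3 promoter is shown because it holds a match to the core of the hypoxia response element, to which HIF binds. The core searched was ACGTG on both strands, and the capitals mark 2 matches that overlap, 1 on each strand. It is given as the 250 bases before the start site, from RefSeq on build GRCm38.p6, 5′ to 3′ on the gene's strand.
Bnip3, chr7:138909507-138909756, minus strand: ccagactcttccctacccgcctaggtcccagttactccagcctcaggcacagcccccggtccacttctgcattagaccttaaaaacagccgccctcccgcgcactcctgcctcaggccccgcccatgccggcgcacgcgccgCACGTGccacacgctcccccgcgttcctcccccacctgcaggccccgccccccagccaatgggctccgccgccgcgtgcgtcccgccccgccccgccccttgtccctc
The matches lie 108 bases before the start site. In the hypoxia list 9 of 15 promoters (60%) held the core, against 30.8% of measured genes and 21.8% of all RefSeq promoters of that length. Among all lower genes with a promoter 68 of 255 held it (26.7%) and among higher genes 5 of 32 (15.6%), both below the share of measured genes. Among the 3 lower members Bnip3 and Ankrd37 held it, and the Pdk1 window did not.

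Amino acid stress genes, which the factor ATF4 drives when amino acids run short or proteins misfold, lay mostly below 0 in both genotypes. Of 27 measured members 23 were below 0 in knockout-labelled cells, 2 were counted as lower (7.41%, against 3.08% of all measured genes), none was higher, and the median was -0.36 against -0.40 in wild type. Slc7a11, the cystine importer, read 6.29 and 4.79 in knockout-labelled cells and 6.36 and 4.90 in wild type, so its levels and its difference were nearly the same in both. Its hypertonic signals were below the dim limits. Cth, which makes cysteine, read 7.84 and 6.84 against 7.82 and 6.84, and its difference came to -0.85 under an alternative, short of 2-fold. The amino acid transporter gene Slc7a5 differed by -0.67 and the reductive enzyme gene Nqo1, a target of NRF2, by -1.14 (6.71 and 5.57, against 7.25 and 8.08 in wild type). The NRF2 list as a whole had a median of -0.14, with 13 of 21 below 0.

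No gene of the lists for protein quality control and respiration was counted, while of all measured genes 3.08% were lower and 0.379% higher. None of 31 measured proteasome subunits passed 2-fold, and 28 were below 0, with a median of -0.25 and Psmd11 lowest at -0.52. Of 22 endoplasmic reticulum folding genes 19 were below 0, with a median of -0.28, and the largest differences were those of the stress factor gene Xbp1 (8.17 and 7.34) and the disulphide isomerase gene Pdia4 (10.16 and 9.39). Of 33 oxidative phosphorylation genes 27 were below 0, with a median of -0.18, and Sdhc, a succinate dehydrogenase subunit, was lowest (9.27 and 8.32). The median of all genes was -0.09, and after quantile normalization that of the oxidative phosphorylation list was -0.04, with all genes at 0.01.

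Osmolyte genes, the best known targets of NFAT5, were not higher as a group. Of 15 measured members of the osmolyte list none was higher and 1 was lower (6.67%). Of all measured genes 0.379% were higher and 3.08% lower, so both counts are near the background for so short a list. In the list 6 were above 0, and the median of -0.03, against 0.22 in wild type, turned to 0.05 after quantile normalization. The myo-inositol transporter gene Slc5a3 read 7.42 in isotonic and 6.44 in hypertonic knockout-labelled cells, short of 2-fold, whereas the wild-type arrays read 8.23 and 10.03. Slc6a9, a glycine transporter gene, was the 1 member counted (7.60 and 6.58, against 8.42 and 8.76), and it came to -0.87 under an alternative, short of 2-fold. Gpcpd1, whose enzyme degrades the osmolyte glycerophosphocholine, read 6.50 and 5.54. Chka, the choline kinase that begins phosphatidylcholine synthesis, differed by 0.69. In the list of other tonicity genes none of 17 passed 2-fold, also near the background. Of these 9 were above 0 and the median was 0.01, against 0.38 in wild type. Aqp5, a water channel, differed by 0.55, the kinase gene Stk39 by -0.68, the small heat shock protein gene Cryab by -0.48 and S100a4 by -0.58. The core of the tonicity element, TGGAAA on either strand, was searched in genes with a RefSeq promoter. It was found in 7 of 32 higher genes (21.9%), in 57 of 255 lower genes (22.4%) and in 18.7% of all measured genes.

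Of the 39 higher genes 18 were not measured in wild type, and none of the others passed 2-fold there in either direction. Of all genes measured in wild type 1.01% were higher and 0.414% lower, so a count of none among so few is near the background. Prl2c5, a proliferin gene of the prolactin family, read 3.0 in isotonic and 6.29 in hypertonic knockout-labelled cells, a 9.78-fold higher signal, against 2.77 and 3.07 in wild type. Arg1, arginase, read 4.86 and 6.73 against 4.37 and 4.06, and the ubiquitin ligase gene Rnf128 5.27 and 6.81 against 5.39 and 5.31. All began below the dim limit, and the hypertonic knockout-labelled array alone was bright. Others were above it on both arrays. Pla2g7, which degrades platelet-activating factor, read 7.15 and 8.58 against 5.99 and 6.43. Gfra1, a co-receptor for GDNF, read 6.99 and 8.30 against 6.86 and 6.51. Gpnmb, a glycoprotein of lysosomes and melanosomes, read 8.65 and 9.85 against 6.28 and 5.94. The histone gene H2bc4 read 7.46 and 8.98, and as it was 7.72 and 8.63 in wild type the same direction was seen there, short of 2-fold.

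Genes that report signalling through the kinase ERK lay mostly above 0, and 2 were counted as higher. Of 19 measured members 17 were above 0, the largest share among the pathway lists with at least 10 measured members, against 39.9% of all genes. The median was 0.49, and between 0.54 and 0.58 under the 3 scalings, while the wild-type median was -0.31. Etv4, an ETS factor that ERK induces, read 5.42 and 6.59 against 5.78 and 5.04 in wild type, and Dusp4, a phosphatase that acts on ERK, 4.54 and 5.57 against 5.27 and 4.93. These were the 2 counted members (10.5%, against 0.379% of all measured genes), and Dusp4, which began below the dim limit, came to 0.93 under an alternative. Etv5 (5.72 and 6.59) and Fosl1, an AP-1 subunit (5.97 and 6.81), were the next highest. Ccnd1, cyclin D1, went the opposite way by -0.46. In the list of AP-1 and immediate early genes none of 21 passed 2-fold, 15 were above 0 and the median was 0.27, against -0.32 in wild type. Maff (0.93) and Ier5 (0.85) led it, and Egr1 was lowest at -0.69. In 13 of the 19 ERK genes and 14 of the 21 immediate early genes the difference was above 0 under the knockout label and below 0 in wild type.

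**Figure D4:**
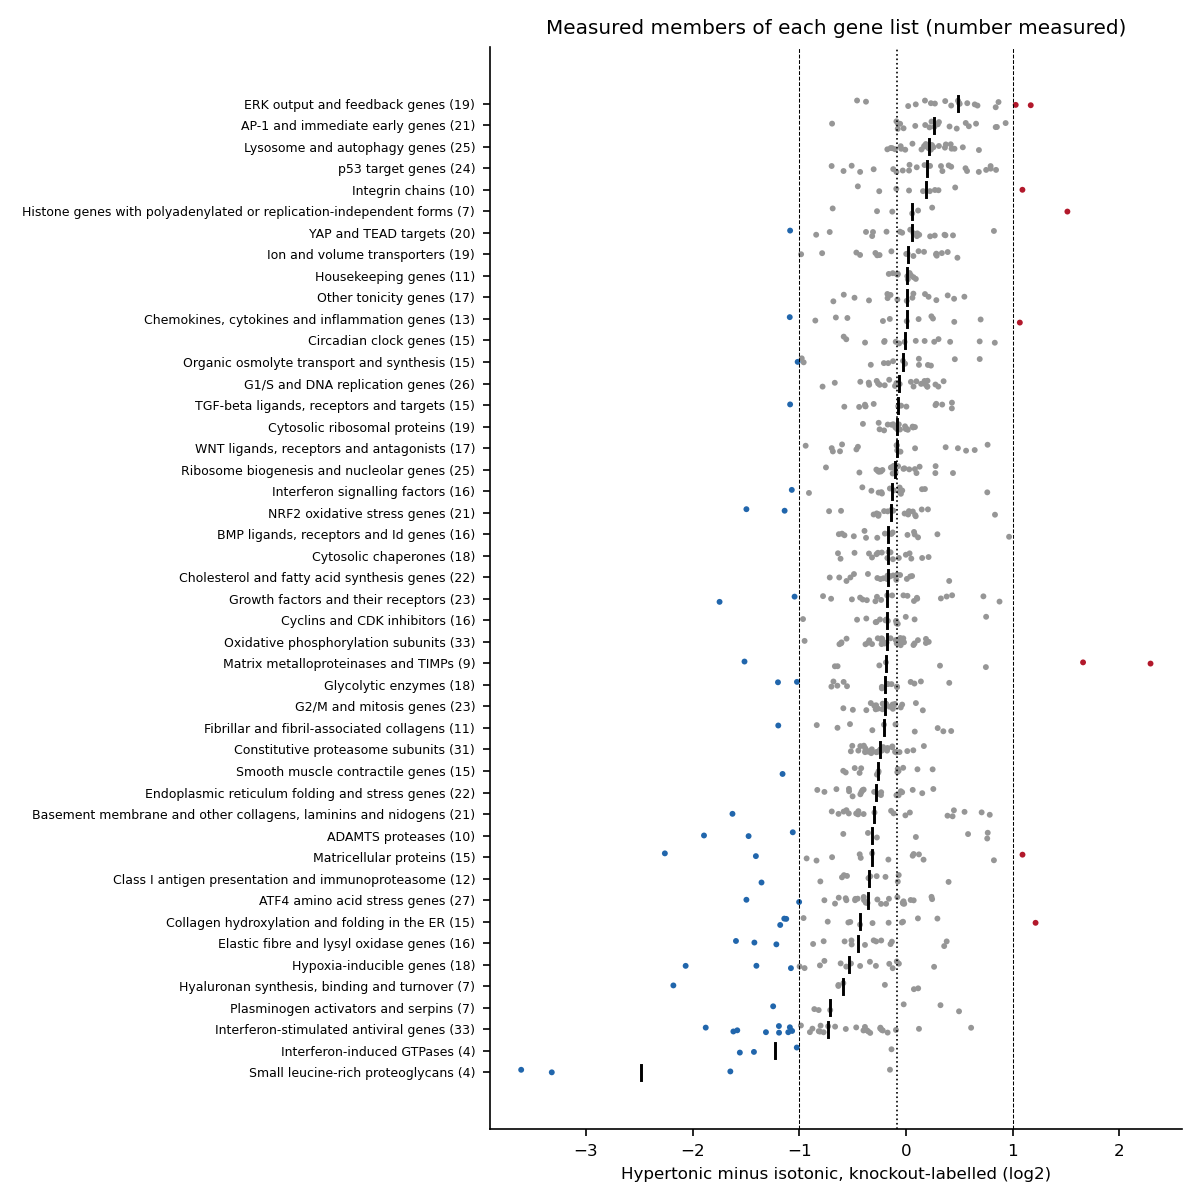
Log2 difference between hypertonic and isotonic knockout-labelled cells (x axis) for every measured member of the pathway lists with at least 4 measured members, with the number measured in brackets. Black bars are list medians, red and blue points are at least 2-fold higher and lower, dashed lines mark 2-fold and the dotted line the median of all genes, -0.09; the antiviral interferon list has a median of -0.73 and the ERK list 0.49.

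Several of the 20 lowest genes belonged to none of these lists. Vaultrc5, a small non-coding vault RNA gene, read 8.65 in isotonic and 5.88 in hypertonic knockout-labelled cells, against 8.47 and 7.55 in wild type. The protocols describe amplification with a poly(T) primer, and whether this probe set read the vault RNA itself was not tested. Prpsap2, which binds the enzyme that makes phosphoribosyl pyrophosphate, read 7.94 and 5.99 against 7.88 and 7.70. Bcap29, of the endoplasmic reticulum membrane, read 6.98 and 5.07, and the methyltransferase gene Mettl1, whose enzyme modifies transfer RNA, 7.28 and 5.47. For these 4 the isotonic knockout-labelled signal was close to both wild-type signals or to the isotonic one, and the hypertonic signal lay below all 3. Enpp3, an ectonucleotidase, read 6.12 and 4.01 against 5.05 and 6.23. Erg, an ETS factor gene best known from endothelium and blood, read 7.02 and 5.23 against 4.78 and 5.30, so there the isotonic knockout-labelled array was the one that stood apart. Arrdc3, an arrestin domain adaptor gene, read 6.98 and 5.19 against 6.64 and 7.03. Bcap29, Enpp3, Erg and Arrdc3 ended below the dim limit.

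Contractile and growth factor genes had few counted members. Of 15 measured smooth muscle contractile genes 13 were below 0, with a median of -0.26, and Myl9, a myosin light chain gene, was the 1 counted (6.67%). Of 23 growth factor and receptor genes 2 were lower (8.70%, against 3.08% of all measured genes). They were Vegfd and Pdgfrl, a PDGF receptor-like gene that differed by -1.04, while Pdgfb differed by 0.88. Tgfb2, a TGF-beta ligand gene, differed by -1.09 and was the 1 counted of 15 in its list (6.67%). Pdgfrl and Tgfb2 ended below the dim limit. Under an alternative Pdgfrl came to -0.96 and Tgfb2 fell just short of 2-fold. Of 10 measured integrin chains 7 were above 0, with a median of 0.19. Itgb7 was counted as higher with 1.09 (10%, against 0.379% of all measured genes). In the circadian list none of 15 was counted, and the repressor gene Nr1d1 was highest with 0.83.

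No gene of the p53 target list or of the lysosome and autophagy list was counted, while of all measured genes 3.08% were lower and 0.379% higher. Of 24 measured p53 targets 16 were above 0, with a median of 0.20 against -0.22 in wild type. Trp53inp1, which links p53 to autophagy and cell death, read 9.03 and 9.87, Plk3 6.57 and 7.36, and the death gene Bbc3 5.18 and 5.97. Of 25 lysosome and autophagy genes 18 were above 0, with a median of 0.21, led by the autophagosome protein gene Map1lc3b (9.60 and 10.28) and the protease gene Ctsd (11.53 and 12.06).

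No gene of the cell cycle lists was counted, while of all measured genes 3.08% were lower and 0.379% higher. Of 23 mitosis genes 21 were below 0, the median was -0.20, and the largest differences were those of Hmmr (-0.59) and the kinetochore motor gene Cenpe (-0.50). The median of 26 replication genes was -0.07 and turned positive under each of the 3 scalings. Of 16 cyclins and cyclin-dependent kinase inhibitors 14 were below 0, with a median of -0.18, and Cdkn2b (8.59 and 7.62) and Cdkn1c (7.07 and 7.82), both inhibitors, lay at opposite ends. Housekeeping genes ran from -0.16 to 0.09, with a median of 0.01 over 11 genes.

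In all, 54 of the 55 lists had a measured member, 37 medians were below 0 and 31 were below that of all genes. The sign of a median changed under quantile normalization, cyclic loess or centring in 6 lists, which were the osmolyte, circadian clock, ribosomal protein, replication, TGF-beta and WNT lists. No list with a median beyond 0.2 changed sign under these 3.

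Markers of cell types were read on the same arrays. Of 14 fibroblast markers 10 were measured, from Vim at 12.72 and 12.50 downward, and the 4 others, Dcn, Lum, Fap and Dpt, did not reach the dim limit in either medium. The median difference of the measured ones was -0.47, with Postn and Col1a2 counted as lower (20%, against 3.08% of all measured genes), both also in the matrix lists. Of 8 endothelial markers none was measured, the highest signals being 4.52 and 4.91. Of 9 macrophage and leukocyte markers 1 was, Cd68, at 5.62 and 5.46. Of 10 epithelial markers 5 were measured, 4 of them above 0, with Krt18 highest in difference (6.03 and 6.94), and the median signal of all 10 was 5.10 and 5.39. Of 8 muscle markers 3 were measured, and Tnnt2, troponin T, was counted as higher (4.76 and 6.05). The part of these shifts in the response was not tested, and in pooled arrays fewer cells of a type and less RNA per cell cannot be told apart.

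The counts were set against signal, promoter GC content and gene length. Measured genes were split into 5 bins by mean wild-type signal, which the rule used in part, since the brightest probe set was chosen on the mean of all 4 arrays. The share counted as lower was 3.45% in the dimmest bin, 4.18% in the next and 1.26% in the brightest, while the share counted as higher went from 1.31% to 0%. By promoter GC content the share of lower genes went from 4.82% in the bin with the least GC to 1.75% in that with the most. Long genes were counted as lower more often than short ones, 3.60% in the longest bin by RefSeq span and 2.05% in the shortest. The part of signal, GC content and length in the counts was not tested.

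**Figure D5:**
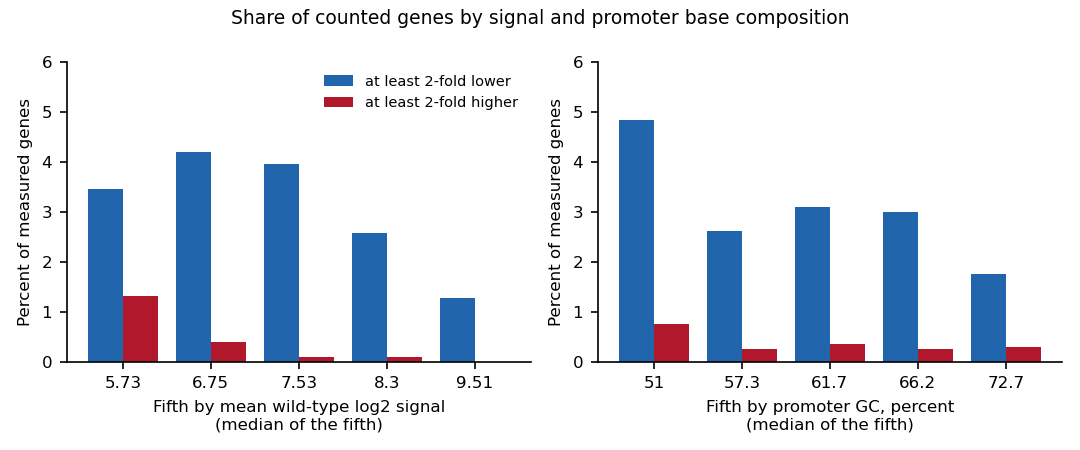
Percent of measured genes at least 2-fold lower (blue) and higher (red) in hypertonic knockout-labelled cells, by 5 bins of mean wild-type log2 signal (left) and of promoter GC percent (right), with the median of each bin on the x axis. The share of lower genes is 4.82% in the bin with the least GC and 1.75% in that with the most.

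Lower genes often lay next to each other. In RefSeq gene order 56 of the 317 (17.7%) had another lower gene as a direct neighbour among measured genes, against 563 of 9945 other measured genes (5.66%). Besides Aspn, Omd and Ogn, the runs included these related pairs, picked after their values were seen: Gbp7 and Gbp3, Adamts1 and Adamts5, and Osmr and its sister receptor gene Lifr. Whether such pairs share sequence that a probe set reads was not tested. Further measured probe sets, left out by the rule, were at hand for 10 lower genes. All 16 of these probe sets were below 0 and 11 passed 2-fold, with a median of -1.13. They share the same pooled RNA with the probe sets that chose the genes. The spread between probe sets of a gene, over 617 genes with at least 2 measured, was 0.19 (SD of the difference).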

How the data were processed

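The authors deposited a table of values per probe set for 4 Affymetrix Mouse Gene 1.0 ST arrays, taken here as log2 signal from their range; per the submitters' processing notes MAS5 was used, while the sources used here name neither its version nor a genome build. The labels' protocols describe RNA amplification with a poly(T) primer. Of 35557 probe sets 21789 named 1 gene, 1621 several and 12147 none. Differences are subtractions of deposited log2 values between 2 pooled arrays, so no test was possible. Python 3.11.15 (pandas 2.3.3, numpy 2.4.6) and R 4.3.3 (limma 3.58.1) were used. Alternatives were quantile and cyclic loess normalization in limma, centring, other dim limits, the mean of probe sets and a 1.5-fold count. Counting was tested on simulated data. Named genes were Nfat5, the 20 highest and 20 lowest past 2-fold without provisional symbols, every list member past 2-fold and each list's 4 largest differences, and those nearest to the limits; others are said to be chosen after their values were seen, or are cell type markers. Members and lists were chosen with earlier results of these data known. Promoters are those of RefSeq, build GRCm38.p6.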

Additional observations from a re-analysis of the deposited data

Results flagged for a closer look

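A set of 20 genes was at least 2-fold lower in hypertonic knockout-labelled cells and at least 2-fold higher in hypertonic wild-type cells. The difference between the genotypes was not tested, since each group had 1 pooled array (over all genes, 3.08% were lower under the knockout label and 1.01% higher in wild type), and the genes outside the naming rule were picked by this opposite direction after their values were seen. Matrix genes among them were Ogn (-3.61 in knockout-labelled and 1.39 in wild-type cells), Aspn (-3.32 and 2.08), Tnc (-2.26 and 1.38), Omd (-1.65 and 1.43), Olfml3 (-1.35 and 1.41) and Igsf10 (-1.25 and 1.05). Interferon-induced genes were Ddx60 (-1.75 and 1.20), Ifi203 (-1.62 and 1.01), Ifit3 (-1.58 and 1.52), Ifit3b (-1.20 and 1.47), Dhx58 (-1.19 and 1.27), Oasl2 (-1.09 and 1.07), Irf7 (-1.07 and 1.54), Gbp3 (-1.02 and 1.48) and Lgals3bp (-1.09 and 1.51), the last of these a secreted glycoprotein gene. The others were the ectonucleotidase gene Enpp3 (-2.11 and 1.19), the glutamate transporter gene Slc1a3 (-1.19 and 1.90), Nrep (-1.19 and 1.78), Cped1 (-1.04 and 1.34) and the thyroid hormone receptor gene Thra (-1.02 and 1.17).

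Probe sets that the comparison left out also differed between media. Of 4306 probe sets above the dim limit with no gene in the annotation, 54 passed 2-fold upward and 311 downward in hypertonic knockout-labelled cells. Of the 10277 measured genes 39 were higher (0.379%) and 317 lower (3.08%), so both shares were larger among the probe sets with no gene. Of 785 probe sets above the dim limit and annotated with several genes, 4 were higher and 3 were lower. The highest, annotated with the 3 proliferin genes Prl2c2, Prl2c3 and Prl2c4, of the family of Prl2c5, read 2.32 in isotonic and 5.47 in hypertonic cells. The other higher ones all carried the same annotation, with 4 genes of the Serpinb9 family. The lowest, annotated with 6 genes, read 6.61 and 5.18. These genes were named after their values were seen, and whether probe sets read sequence shared within a family was not tested.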

How the results depend on the processing

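No paired analysis was possible because each group had 1 array and the labels gave no replicate numbers. Higher genes numbered 39 in the deposited values, 66 with centring, 63 with quantile normalization, 19 with both arrays above the dim limit, 11 with that limit at the 75th percentile and 440 at 1.5-fold. The count of lower genes was 317, and it was 110 at the stricter dim limit and 1237 at 1.5-fold. All 215 lower genes after quantile normalization and all 233 after centring were among the 317. With no limit on dim genes, the median of the ADAMTS list turned from -0.32 to 0.092 and that of the matricellular list from -0.32 to 0.0081, where the alternative adds dim members. The median of the leucine-rich proteoglycans went from -2.48 to -0.09 in the same way, and to -0.15 where both arrays had to be above the limit, which left Bgn alone. Signal over background limits the higher genes, of which 20 of 39 began below the dim limit. Pooled arrays give no measure of the spread between cultures.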

Other observations

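Enzymes that build the N-linked sugar chains of secreted proteins were among the lower genes, picked after their values were seen. Alg8, which adds glucose to the lipid-linked precursor, differed by -1.44 between hypertonic and isotonic knockout-labelled cells. Alg5 differed by -1.28, Alg3 by -1.26 and Alg6 by -1.12. Dpagt1, which starts the precursor, differed by -1.19. Gmppb, which supplies activated mannose, differed by -1.05, and the related gene Gmppa by -1.14.

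Mitochondrial enzymes of fatty acid and amino acid breakdown were found there too, also picked after their values were seen. Cpt2, which imports fatty acids, differed by -1.43, Suclg2, a succinyl-CoA ligase subunit, by -1.42 and Etfb, an electron carrier, by -1.14. Pcca and Pccb, the subunits of propionyl-CoA carboxylase, differed by -1.35 and -1.11. No list of either kind was counted, so how many further members stayed within 2-fold is not given.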
